A study of Mus musculus with 6 samples.

Results

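The genes described here are 10 genes of the cornified envelope of stratified epithelia: the transglutaminases Tgm1, Tgm3 and Tgm5, the lipoxygenases Alox12b and Aloxe3, and the lipid enzymes and transporter Abca12, Cers3, Elovl4, Pnpla1 and Ugcg. They were chosen by symbol, and all 10 were found among the 35275 genes of the deposited expression table. The study sequenced bulk RNA from tongue tissue of mice that had drunk 100 µg/ml of 4NQO (4-nitroquinoline 1-oxide, a DNA-damaging carcinogen that produces squamous lesions of the oral epithelium) for 20 weeks. There were 3 libraries from Aim2 KO mice (a knockout of the gene for AIM2, a cytosolic sensor of double-stranded DNA) and 3 from wild type mice, numbered 1 to 3 in each genotype. Both genotypes had received the carcinogen, so no library stands for an untreated tongue. The library names share a number within each genotype, whose meaning is not given and which cannot be told apart from genotype. The sources used here give no strain, sex or age, no extent of the Aim2 deletion, and no statement that every library is a separate animal. The p-values therefore rest on the spread among libraries, which may be partly technical.

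The outermost layers of stratified squamous epithelium replace their plasma membrane by a cross-linked protein shell with lipids bound to its outer face. Transglutaminases make the protein shell by joining glutamine to lysine residues of proteins such as loricrin and the small proline-rich proteins. The lipids are acylceramides, which carry an ultra-long fatty acid with a linoleate at its end, and the 12R-lipoxygenase pathway oxidises that linoleate before the ceramide is attached to the shell. Inherited loss of TGM1, ALOX12B, ALOXE3, ABCA12, CERS3 or PNPLA1 causes congenital ichthyosis in people, and the upper surface of the rodent tongue is covered by a cornified epithelium that carries filiform papillae.

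The libraries held 21959204 to 25369400 reads, recovered from the FPKM, and the markers of tongue were present: Krt13 of the oral epithelium averaged 15243 FPKM across Aim2 KO libraries and 15573 FPKM across wild type ones, and Acta1 of muscle 3231 and 3748 FPKM. Aim2, the targeted gene, had 0.0469, 0.0564 and 0.160 FPKM in Aim2 KO libraries and 0.201, 0.363 and 0.417 FPKM in wild type, without overlap. These values are near the floor and under the mean of 1 FPKM required for a test, so Aim2 was not tested. The mean log2 level of 18 epithelial genes was 6.67 to 7.04 in Aim2 KO, against 6.59 to 6.97 in wild type, and Aim2 KO replicate 1 and wild type replicate 2 held its extremes. The level of 15 skeletal muscle genes was 8.27 in Aim2 KO replicate 1 and 9.13 to 9.42 in the other 5 libraries. All 13 tested leukocyte markers had positive differences, with a median of 0.65 and no overlap for 9 of them (mean log2 level 2.77 to 3.28 in Aim2 KO, 2.29 to 2.43 in wild type), and 0 passed. Of all 12144 genes tested 57.2% had a positive difference and 4.98% were higher in Aim2 KO without overlap. Of that list the B cell genes Cd79a and Ms4a1 were at or near 0.

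Across the 6 libraries the 10 genes were expressed at mean levels from 9.63 FPKM (Pnpla1) to 647 FPKM (Tgm3), and none differed detectably between Aim2 KO and wild type tongues. FPKM are reads per kilobase of gene length and scaled to the depth of the library, so levels can be set side by side between genes. The ratio of the Aim2 KO mean to the wild type mean lay between 0.879 (Aloxe3) and 1.05 (Ugcg), with 5 genes above 1 and 5 below. The difference between genotypes was tested by limma on log2(FPKM + 1), a scale on which the change of low genes is understated, over the 12144 genes averaging 1 FPKM or more, which include all 10. At an adjusted p under 0.05, 0 of the 10 genes were called, and 0 had an unadjusted p under 0.05. Of all genes tested 1 was called (0.00823%), Wdfy1, and 304 had an unadjusted p under 0.05 (2.50%). The Aim2 KO and wild type values overlapped for all 10 genes, while they did not overlap for 6.46% of the genes tested (4.98% higher and 1.48% lower in Aim2 KO). The median log2 difference, Aim2 KO minus wild type, was -0.02 over the 10 genes and 0.02 over all genes tested. Without Aim2 KO replicate 1 the median log2 difference of the 10 genes was -0.11, with the epithelial level as a covariate it was -0.04 and with the muscle level -0.08, and 0 of the 10 passed in any of these fits. In a bulk sample fewer cells of a type and less RNA per cell cannot be told apart.

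**Figure D1:**
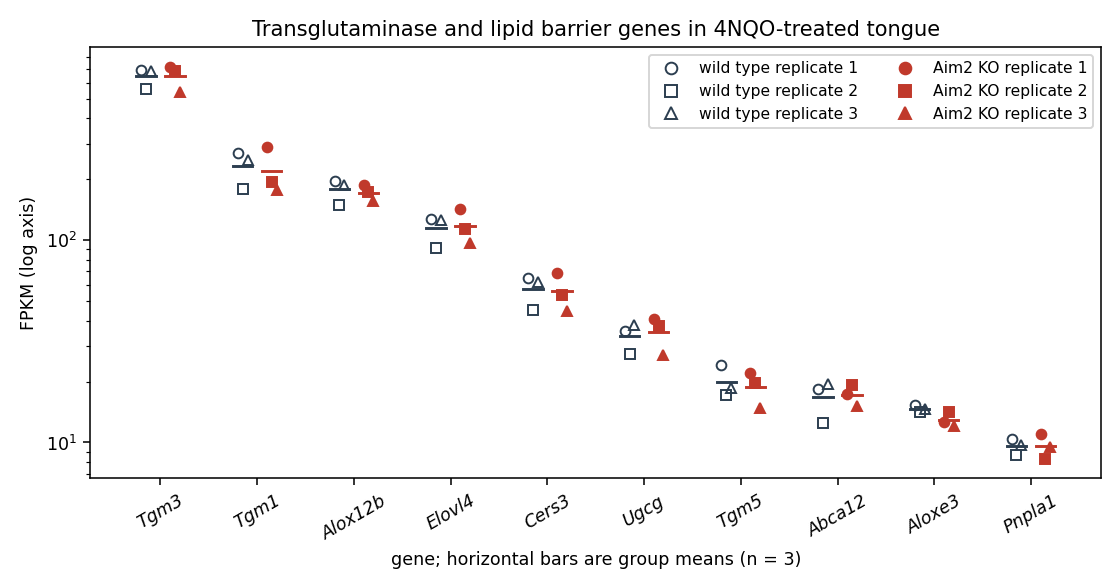
FPKM (log axis) of the 10 genes in each library, with open symbols for wild type, filled symbols for Aim2 KO, symbol shapes for replicates 1 to 3 and horizontal bars for group means (n = 3). Tgm3 stands highest at a mean of 647 FPKM, Pnpla1 lowest at 9.63 FPKM, and the values of the genotypes overlap for all 10 genes.

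The transglutaminases were led by Tgm3. Tgm3 (ENSMUSG00000027401; chromosome 2, 130012349 to 130050399, plus strand), a cytosolic zymogen that proteolysis activates, had 718, 688 and 541 FPKM in Aim2 KO replicates 1 to 3 and 696, 558 and 683 FPKM in wild type replicates 1 to 3. It ranked 118th by mean level among the 12144 genes tested, and it made up 69.9% to 76.3% of the summed FPKM of the 3 transglutaminases in a library. The 2 lowest Tgm3 values came from 1 library of each genotype, Aim2 KO replicate 3 and wild type replicate 2. Group levels were 649 ± 95.0 FPKM in Aim2 KO libraries and 646 ± 76.3 FPKM in wild type (mean ± SD, n = 3 each), and the log2 difference was 0.0037 (95% interval -0.41 to 0.42, limma adjusted p = 0.9998).

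Tgm1 (ENSMUSG00000022218; chromosome 14, 55700009 to 55713492, minus strand), the membrane-anchored keratinocyte transglutaminase, had 287, 194 and 176 FPKM in Aim2 KO libraries and 269, 179 and 248 FPKM in wild type. Of the 10 genes it varied most, with a 1.63-fold range between its highest library, Aim2 KO replicate 1, and its lowest, Aim2 KO replicate 3. Group levels were 219 ± 59.7 FPKM and 232 ± 47.2 FPKM (log2 difference -0.09, interval -0.63 to 0.44). Tgm5 (ENSMUSG00000053675; chromosome 2, 121046111 to 121085841, minus strand), whose loss in people causes peeling of the superficial skin, had 22.0, 19.6 and 14.9 FPKM in Aim2 KO libraries and 24.0, 17.1 and 18.6 FPKM in wild type. Its extremes were wild type replicate 1 and Aim2 KO replicate 3, and its log2 difference was -0.08 (interval -0.49 to 0.33). Per length, Tgm1 was 9.87 to 13.3 times as abundant as Tgm5 within a library, and Tgm3 was 2.50 to 3.55 times as abundant as Tgm1.

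The sequences before the start sites of the main pair are shown because both genes ranked among the most abundant 2.45% of genes tested and shared most of their order of libraries, described further on. The 250 bases upstream of the start site in RefSeq's table (GRCm38.p6) are printed 5′ to 3′ along the gene's strand, chr14:55713493-55713742 for Tgm1 and chr2:130012090-130012339 for Tgm3, with matches to the searched motifs in capitals.
Tgm1: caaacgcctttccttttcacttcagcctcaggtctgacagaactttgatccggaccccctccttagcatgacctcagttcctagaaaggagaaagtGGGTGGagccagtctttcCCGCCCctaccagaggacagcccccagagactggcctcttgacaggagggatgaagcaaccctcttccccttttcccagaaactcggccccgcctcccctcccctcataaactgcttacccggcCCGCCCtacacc
Tgm3: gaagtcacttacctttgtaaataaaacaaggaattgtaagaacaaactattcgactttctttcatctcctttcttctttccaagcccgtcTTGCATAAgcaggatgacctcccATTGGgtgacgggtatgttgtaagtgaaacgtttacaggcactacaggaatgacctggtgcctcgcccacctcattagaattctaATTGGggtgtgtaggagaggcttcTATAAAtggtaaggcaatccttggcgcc
Both strands were searched for 7 motifs. The general promoter elements were the TATA box, spelled TATAAA, the GC box, for which the letters GGGCGG were used, and the CCAAT box. For the factors of epithelial differentiation the search used CCACCC, the box that Krüppel-like factors bind, and TTGCNNAA for the C/EBP proteins. AP-1 was searched as TGANTCA, and the grainyhead-like proteins were searched as AACNGGTT. The Tgm1 window held 2 GC boxes and 1 CACCC box and no TATAAA, and was 58.0% G and C. The Tgm3 window held TATAAA from base -28 to base -23 before the start site, a pair of CCAAT matches and 1 C/EBP match, and was 44.0% G and C. Of the 9 of the 10 genes with an entry in that table, TATAAA was found in 1 and GGGCGG in 4, against 12.4% and 32.7% of all 32851 windows. TGANTCA and AACNGGTT were found in 0 of the 9 windows and in 6.75% and 1.79% of all windows. CCAAT was found in 3 of the 9, CCACCC in 2 and TTGCNNAA in 1, against 33.8%, 28.1% and 9.56% of all windows. A match is a description of letters and not of a bound site.

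The lipoxygenases of the pathway lie next to each other on chromosome 11, with 7.87 kb between the end of Aloxe3 and the start of Alox12b. Alox12b (ENSMUSG00000032807; chromosome 11, 69156989 to 69169792, plus strand), the 12R-lipoxygenase that oxidises the linoleate first, had 188, 173 and 155 FPKM in Aim2 KO libraries and 197, 150.0 and 188 FPKM in wild type. Aloxe3 (ENSMUSG00000020892; chromosome 11, 69125896 to 69149115, plus strand), the hydroperoxide isomerase that acts on its product, had 12.6, 14.1 and 12.0 FPKM in Aim2 KO libraries and 15.3, 14.1 and 14.6 FPKM in wild type. Although the genes are neighbours, Alox12b was 10.6 to 14.9 times as abundant as Aloxe3 within a library. The log2 difference of Alox12b was -0.05 (interval -0.39 to 0.30). Aloxe3 came nearest of the 10 genes to a separation: Aim2 KO replicate 2 lay just above the lowest wild type library, and the other Aim2 KO libraries lay below all wild type libraries. Its levels were 12.9 ± 1.10 against 14.7 ± 0.627 FPKM (log2 difference -0.18, interval -0.41 to 0.06, limma unadjusted p = 0.125, adjusted p = 0.9998). It was the 1 gene of the 10 whose difference kept its sign under all 17 other settings tried, from -0.24 to -0.13, with adjusted p of at least 0.298. The settings reuse the same libraries and are not independent, so the kept sign adds no support.

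The enzymes that build the acylceramide followed in the order of their steps. Elovl4 (ENSMUSG00000032262; chromosome 9, 83778692 to 83806277, minus strand), which elongates fatty acids to ultra-long chains, had 143, 114 and 97.1 FPKM in Aim2 KO libraries and 127, 91.5 and 126 FPKM in wild type (log2 difference 0.04, interval -0.40 to 0.48). Cers3 (ENSMUSG00000030510; chromosome 7, 66743504 to 66823692, plus strand), the ceramide synthase that uses these chains, had 69.2, 53.7 and 44.7 FPKM in Aim2 KO libraries and 65.1, 45.3 and 62.0 FPKM in wild type (log2 difference -0.05, interval -0.50 to 0.41). Both had Aim2 KO replicate 1 as the highest library, wild type replicate 1 as the next, and Aim2 KO replicate 3 and wild type replicate 2 as the lowest pair. Pnpla1 (ENSMUSG00000043286; chromosome 17, 28858411 to 28890308, plus strand), the transacylase that adds the linoleate, had 11.1, 8.33 and 9.52 FPKM in Aim2 KO libraries and 10.4, 8.70 and 9.75 FPKM in wild type (log2 difference -0.0027, interval -0.30 to 0.29). Its lowest library was Aim2 KO replicate 2, which was no other gene's lowest.

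Beside the windows of Tgm1 and Tgm3, the 250 bases before the start site of Cers3 (RefSeq, GRCm38.p6, chr7:66743254-66743503, plus strand) are shown because Cers3 followed the other 9 genes closely over the libraries and its window held none of the 7 motifs, so that no letter is in capitals.
Cers3: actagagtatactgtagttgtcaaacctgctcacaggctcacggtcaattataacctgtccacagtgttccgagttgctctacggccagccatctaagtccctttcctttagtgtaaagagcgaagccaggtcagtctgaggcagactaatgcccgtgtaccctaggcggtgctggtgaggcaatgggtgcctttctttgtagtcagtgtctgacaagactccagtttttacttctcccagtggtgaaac

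The finished lipid is glucosylated and loaded into lamellar granules. Ugcg (ENSMUSG00000028381; chromosome 4, 59189257 to 59222833, plus strand), which adds glucose to ceramide, had 40.9, 37.7 and 27.2 FPKM in Aim2 KO libraries and 35.5, 27.5 and 38.1 FPKM in wild type (log2 difference 0.06, interval -0.37 to 0.48). Abca12 (ENSMUSG00000050296; chromosome 1, 71242276 to 71414910, minus strand), the transporter that moves glucosylceramide into the granules, had 17.4, 19.2 and 15.1 FPKM in Aim2 KO libraries and 18.4, 12.5 and 19.5 FPKM in wild type (log2 difference 0.05, interval -0.36 to 0.47). Wild type replicate 2 held the lowest Abca12 value and Aim2 KO replicate 3 the lowest Ugcg value, and these were the lowest pair of libraries for both genes.

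The intervals state how large a difference these data leave possible. Over the 10 genes the 95% intervals of the log2 difference ran from -0.63 at the lowest bound to 0.48 at the highest, so that for none of them did the interval reach a 2-fold change in either direction. The widest belonged to Tgm1, from 0.648 to 1.36 as a ratio of Aim2 KO to wild type on the log2(FPKM + 1) scale, and the narrowest to Aloxe3, from 0.751 to 1.04. These intervals are for single genes, are not adjusted over the genes tested, and do not state the smallest difference the test could detect. The values rested on 853 reads (Tgm5 in Aim2 KO replicate 3) to 71620 reads (Tgm3 in wild type replicate 3) per library.

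**Figure D2:**
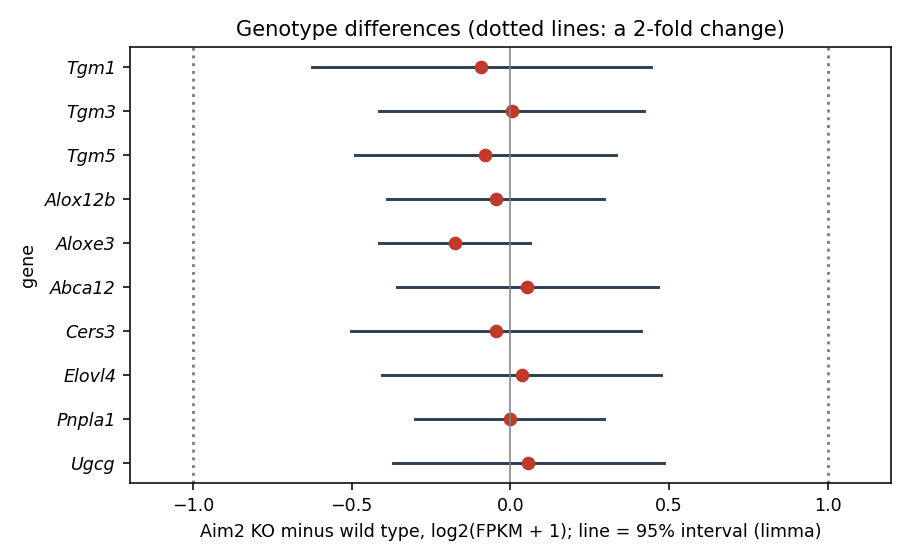
Genotype difference of each gene (Aim2 KO minus wild type, in log2 units of FPKM + 1) with 95% intervals from limma (3 libraries per group) and dotted lines at a 2-fold change. All 10 intervals include 0, and they lie between -0.63 and 0.48.

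Most of the 10 genes were high in the same libraries and low in the same libraries. Aim2 KO replicate 3 was below the gene's own mean for 10 of the 10 genes and wild type replicate 2 for 9, whereas wild type replicate 1 was above it for 10, and Aim2 KO replicate 1 and wild type replicate 3 for 9 each. Averaged over the 10 genes, the log2 level relative to each gene's mean was 0.18, 0.0033 and -0.23 in Aim2 KO replicates 1 to 3 and 0.17, -0.23 and 0.11 in wild type replicates 1 to 3. The 2 lowest libraries thus came one from each genotype, at nearly equal values. The 10 genes together took 0.394% of all reads in Aim2 KO replicate 3 and 0.398% in wild type replicate 2, against 0.481% to 0.539% in the other 4 libraries. The median SD within a group was 0.26 log2 units for the 10 genes and 0.17 for all genes tested. The part of tissue make-up in the shared library profile was not tested.

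**Figure D3:**
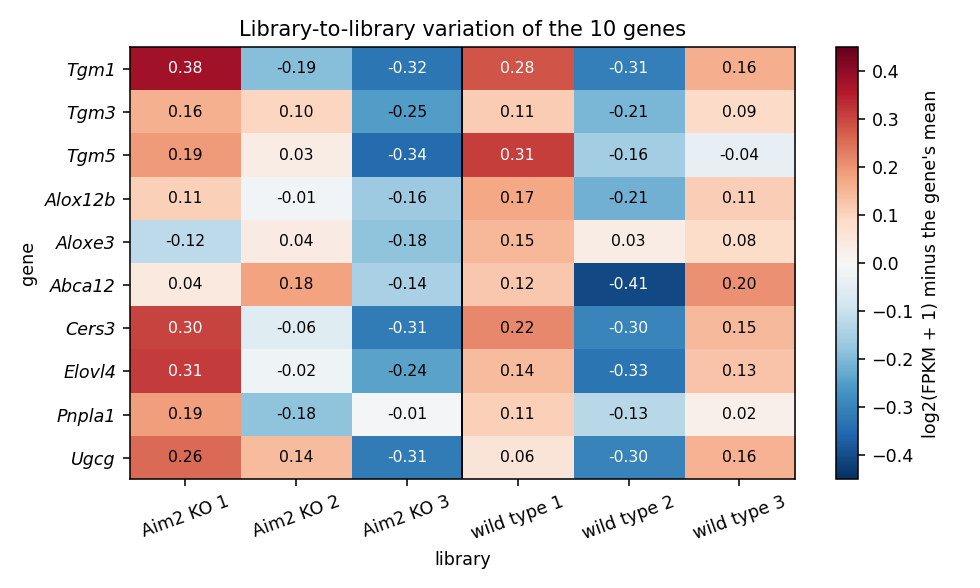
Log2(FPKM + 1) of each gene in each library minus the gene's mean over the 6 libraries, with red above and blue below the mean and a line between the genotypes. Aim2 KO replicate 3 is below 0 in all 10 rows and wild type replicate 2 in 9, the exception being Aloxe3.

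The genes kept their proportions to different degrees. The ratio of Elovl4 to Cers3 was the most constant of the 45 ratios that can be formed from 10 genes, at 2.07, 2.11 and 2.17 in Aim2 KO tongues and 1.96, 2.02 and 2.03 in wild type. These values did not overlap between genotypes (log2 difference 0.08). A two-sided exact permutation test gave p = 0.1, which is as low as 3 against 3 libraries allow, and 0.942 after Benjamini-Hochberg adjustment over the 45 ratios. It was the 1 ratio of the 45 (2.22%) without overlap. The least constant was that of Tgm1 to Aloxe3, with an SD of 0.31 log2 units over the 6 libraries against 0.053 for Cers3 to Elovl4. Once the mean of the 10 genes in each library was subtracted, Alox12b and Tgm3 kept the least variation of their own (SD 0.046 and 0.052 log2 units) and Aloxe3 the most (SD 0.18). Aloxe3 was 0.30 below the shared level in Aim2 KO replicate 1 and 0.26 above it in wild type replicate 2.

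Genes outside the 10 were ranked by how closely their centred log2 levels followed the mean profile of the 10 over the 6 libraries, by the root mean square difference, among 12134 genes. The 5 most alike were Plcd1 (a phospholipase C, root mean square difference 0.035 log2 units), 2010107G12Rik (0.041), Zdhhc13 (a palmitoyltransferase, 0.047), Zswim4 (0.048) and Myo5b (a vesicle motor, 0.048), where the median over all ranked genes was 0.24. Plcd1 had 59.4, 52.6 and 43.0 FPKM in Aim2 KO libraries and 55.5, 44.9 and 54.9 FPKM in wild type, the same order of high and low libraries as in Cers3. All genes were read from the same 6 libraries, whose marker levels differ as given above, so this ranking is a description.

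Many other genes of the acylceramide and lipid envelope pathway, not all of them enzymes of synthesis, stood near the top of that ranking. Of 25 ranked genes of a list of this pathway, 10 were among the nearest 121, which is 1% of the genes ranked, and the list's median rank was 188. They included Cyp4f39, the omega-hydroxylase of the ultra-long chain, at rank 13 (98.7, 80.8 and 73.7 FPKM in Aim2 KO libraries, 91.2, 70.9 and 96.6 FPKM in wild type ones). Sptlc1, a subunit of the first enzyme of ceramide synthesis, was at rank 12, Nipal4, a membrane protein whose loss causes ichthyosis, at rank 16, and Sdr9c7, the dehydrogenase that acts after the lipoxygenases, at rank 88. A list of 13 genes of ceramide hydrolysis had a median rank of 3712. The barrier transcription factors had a median rank of 1671, and the 18 epithelial genes one of 3949.5. Ranked by correlation, these medians were 906 and 1149. Not every gene of the acylceramide list followed. Degs2 was the farthest of the list, at rank 10094, although it was at rank 134 by correlation. Cers2, Cers4 and Cers5, synthases for other chain lengths, were at ranks 9065, 7347 and 7106. Elovl6, Cers6 and Tecr were at ranks 5592, 3671 and 3662. The median rank of the acylceramide list was 182 with median-of-ratios scaling and 193 when genes were ranked by correlation instead. It was between 253 and 469 when 1 library was left out, and the 4 values above 1.5 times 188 were 469 without Aim2 KO replicate 3, 349 without wild type replicate 2, 339 without wild type replicate 1 and 305 without wild type replicate 3. The count of 10 genes among the nearest 121 was 5 to 9 in those fits, with 5 without Aim2 KO replicate 3, 5 without wild type replicate 3 and 6 without wild type replicate 2.

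**Figure D4:**
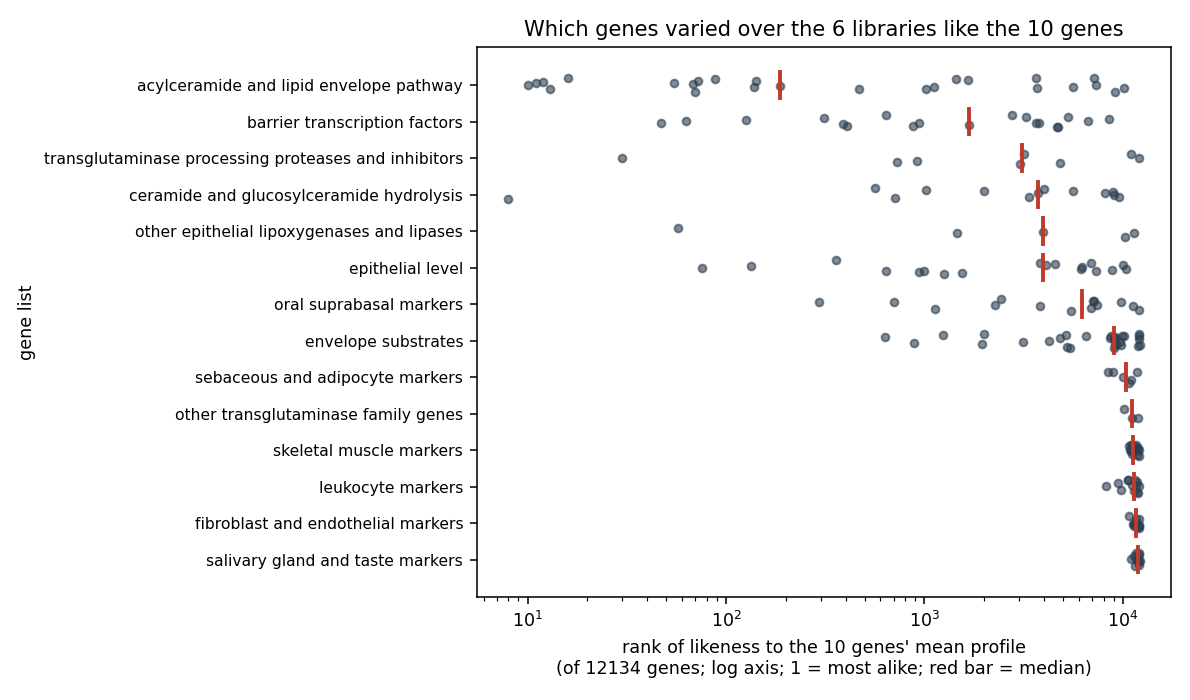
Rank of each listed gene by likeness of its library profile to the mean profile of the 10 genes (log axis, rank 1 most alike, 12134 genes ranked), with 1 point per gene and a red bar at each list's median. The acylceramide list has its median at rank 188, the barrier transcription factors at 1671 and the epithelial level genes at 3949.5. That of the envelope substrates is at 9030, and the markers of muscle, leukocytes, stroma and glands all have medians at rank 10351.5 or beyond.

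Between genotypes the acylceramide pathway list had differences of both signs. Of its 25 tested genes 14 had a positive and 11 a negative log2 difference (median 0.0042), and 0 passed in either direction. Elovl6, an elongase of shorter chains, had the smallest p of the list, at 9.05, 10.5 and 9.47 FPKM in Aim2 KO libraries and 7.51, 7.36 and 9.01 FPKM in wild type (log2 difference 0.26, limma adjusted p = 0.9998), without overlap. Of 13 tested genes of ceramide and glucosylceramide hydrolysis 10 were positive and 3 negative (median 0.03, 0 passed), and the smallest p belonged to Smpd3, a neutral sphingomyelinase, at 17.9 ± 2.74 against 23.2 ± 5.50 FPKM. Among other lipoxygenases and lipases 5 of 11 genes were tested and 0 passed (median 0.01). Of the other lipoxygenase genes, Alox12, the platelet-type enzyme, was at 10.9 to 16.3 FPKM, near the level of Aloxe3, and ranked 57th in likeness to the 10 genes. Alox15 was at 0.939 to 3.29 FPKM, and Alox5, Alox8 and Alox12e had means under 1 FPKM.

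The protein substrates of the transglutaminases mostly had lower means in Aim2 KO, and none passed the test. Of 29 tested envelope substrate genes 27 had a negative and 2 a positive log2 difference, with a median of -0.27 and 0 genes past the threshold. Of all genes tested 57.2% had a positive difference. Genes of 1 family in this list, such as the Sprr genes, may vary together. Sprr2b (log2 difference -0.60) had 1613, 267 and 163 FPKM in Aim2 KO libraries and 948, 531 and 483 FPKM in wild type. Its highest library was thus Aim2 KO replicate 1, and its Aim2 KO mean of 681 FPKM was above the wild type mean of 654 FPKM. Lor, which encodes loricrin, the main envelope protein of cornified skin, had 1856, 2131 and 1915 FPKM in Aim2 KO libraries and 2707, 2864 and 2547 FPKM in wild type, without overlap (log2 difference -0.46, SE 0.20, limma adjusted p = 0.9998). Lce3f had 158 ± 26.1 against 239 ± 69.4 FPKM and Lce3d had 149 ± 39.1 against 226 ± 79.8 FPKM, both late cornified envelope genes, a family of close copies among which reads may have been divided uncertainly. The groups did not overlap for 3 of the 29 genes, Lor, Lce3f and its family member Lce3c, all lower in Aim2 KO. The share of all genes tested that were lower without overlap was 1.48%. Whether substrates and enzymes differ in their response was not tested. The substrates also ranked low in likeness to the 10 genes by root mean square difference, at a median of 9030, but at 1270 by correlation, a measure that disregards the size of the swings.

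Proteases and inhibitors that act on transglutaminases formed a list of 8 genes, of which 0 passed, 6 had a positive and 2 a negative difference (median 0.05). Ctsl, cathepsin L, which activates Tgm3, had 69.5 ± 7.82 FPKM in Aim2 KO libraries and 75.5 ± 4.30 FPKM in wild type ones, and Cst6, the cystatin M/E that inhibits it, had 29.3 ± 4.15 against 28.4 ± 5.36 FPKM. Ctss, cathepsin S of antigen-presenting cells, had 18.7, 25.3 and 39.2 FPKM in Aim2 KO libraries and 11.0, 13.3 and 12.9 FPKM in wild type, without overlap (log2 difference 1.04, SE 0.24, limma adjusted p = 0.985). Ctsh, another lysosomal cathepsin, had 13.3, 11.8 and 13.5 FPKM in Aim2 KO libraries and 10.6, 9.19 and 11.6 FPKM in wild type. Thus 2 of the 8 genes, Ctss and Ctsh, were higher in Aim2 KO without overlap, as were 4.98% of all genes tested. The tested leukocyte markers also had positive differences, of which 0 of 13 passed, and their part in the Ctss and Ctsh values was not tested. The other transglutaminases were low: Tgm2, the tissue transglutaminase, had 6.52 ± 2.87 against 6.03 ± 1.09 FPKM, Tgm7 had 4.68 ± 1.40 against 4.50 ± 0.746 FPKM, and Tgm4, Tgm6 and Epb42 had means under 1 FPKM. Of 19 tested transcription factor genes of the epithelial barrier 10 were positive and 9 negative and 0 passed. Klf4 had 182 ± 15.9 against 188 ± 26.3 FPKM and Grhl3, a regulator of Tgm1, had 59.3 ± 5.52 against 55.3 ± 11.6 FPKM.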

How the data were processed

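Bulk RNA of mouse tongue tissue was made into 3 Aim2 KO and 3 wild type libraries by a company for sequencing, per the labels' protocols. The authors deposited FPKM values, 1 column per library; no aligner, counting tool, build or annotation is given in the sources used here. The positions of 7 of the 10 genes are identical in GENCODE M21, so coordinates are printed as deposited and read as GRCm38. Values times gene length were whole multiples of 1 read (within 0.01 of a read, 100% of values in each library), which gave the reads. Genotypes were compared on log2(FPKM + 1) by limma 3.58.1 in R 4.3.3, with the prior variance following the mean level, two-sided and with Benjamini-Hochberg adjustment over the 12144 genes averaging 1 FPKM or more. The script was tested on simulated data. The genes, the lists and the naming rule were chosen with earlier results of these data known. The rule named the 10 genes, up to 4 genes of smallest p per list and the 5 genes most alike in profile. Further genes named for their role or rank, and Wdfy1, were chosen outside it, after their values were seen. Alternatives were other pseudocounts (0.1 and 0.5), filters and scalings, array quality weights, a replicate block, voom on recovered reads, covariates and leaving out each library. Motifs were searched in RefSeq promoter windows. The values of 1 listed gene are not reported here.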

Additional observations from a re-analysis of the deposited data

How the results depend on the processing

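Under 17 alternatives 0 of the 170 values of the 10 genes passed the threshold (limma adjusted p = 0.298 to 1.00), and 33 had another sign than the main value, which for differences this near 0 is no reversal of a call. The median log2 difference of the 10 genes ran from -0.15 to 0.09 when 1 library was left out, and was -0.19 with array quality weights. These weights ran from 0.241 for Aim2 KO replicate 1 to 4.18 for Aim2 KO replicate 3, and with them Aloxe3 and Tgm5 had unadjusted p of 0.0194 and 0.0433 by limma. In that fit 1645 of the 12144 genes tested had an unadjusted p under 0.05, so these 2 values do not set the 10 genes apart. The median was -0.06 with median-of-ratios scaling, and stayed within the spread between libraries throughout. Of all genes tested 1 was called as reported, and 0 without a filter, with a filter at 0.1 FPKM and after rescaling to TPM (807, 566 and 283 at an unadjusted p under 0.05). The count was 68 with array quality weights, 10 with the muscle covariate and 0 to 14 when 1 library was left out, with 14 without Aim2 KO replicate 1; none of these were among the 10 genes, and the cause was not tested. With the replicate block 0 genes were called (462 at an unadjusted p under 0.05). Deviations of same-numbered libraries correlated at 0.35, 0.46 and 0.03. Aim2 KO replicates 1 and 2 were each closest to the wild type library of the same number, and Aim2 KO replicate 3 to wild type replicate 2 (0.21). These values do not settle whether the replicate numbers pair the samples.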

Other observations

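Of 14 tested genes of the oral suprabasal layers 11 had a negative and 3 a positive log2 difference, and 0 passed. The negative ones were the keratins of the list, and the positive ones were the desmosomal cadherin genes Dsg1a (0.11), Dsc1 (0.08) and Dsc2 (0.07). Krt10, a keratin of cornifying cells, had 272, 166 and 197 FPKM in Aim2 KO libraries and 310.5, 319.8 and 306 FPKM in wild type, without overlap (log2 difference -0.59, SE 0.19, limma adjusted p = 0.9998). Its SD over the wild type libraries was 6.87 FPKM around a mean of 312 FPKM. Krt1, its partner, had 348, 90.0 and 64.2 FPKM in Aim2 KO libraries and 221, 252 and 209.7 FPKM in wild type, so that the highest and the lowest values both fell in Aim2 KO. Krt13, the oral suprabasal keratin, had a log2 difference of -0.03.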
